A study of Musculus with 2 samples.

Results

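The 7 genes described here (Atp5k, Rpl38, AI506816, Mid1, Bcl2a1d, Bcl2a1b and Hes1, of 32285 genes in the deposited matrices) came from single-cell RNA sequencing of subcutaneous white adipose tissue (sWAT) in the mouse. They were chosen from earlier results of the same 2 libraries, as genes whose level appeared to differ in the same direction in many cell types. The contrast that chose them is therefore shown as a description, with no test. What is added is the level of each gene in each type, how constant the ratio was from type to type, and how related genes, gene copies and neighbours in the gene list behaved.

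The LPCAT3-AKO library came from mice with the genotype given as LPCAT3 knockout, and the control library from mice with the genotype given as WT. LPCAT3 is an enzyme of the endoplasmic reticulum that puts polyunsaturated fatty acids into phosphatidylcholine, and the study concerns this remodelling in adipose tissue and insulin sensitivity. Both libraries hold the stromal vascular fraction, the cells that remain once mature fat cells have been removed, among them precursors of fat cells together with immune and vascular cells. The sample labels give an age of 5 weeks and the series text an age of 2 months. The sources used here do not give the number of mice per library, the promoter that drove the deletion, the deleted exons or the 10x chemistry. With 1 library per group there is no replicate, so every difference below is between these 2 libraries, no p-value can be given, and the genotype cannot be told apart from any other difference between the libraries, such as animal, sex, strain background or handling.

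Atp5k encodes a small subunit of mitochondrial ATP synthase, and Rpl38 a small protein of the large ribosomal subunit, so both are housekeeping genes used by every cell. Mid1 encodes a ubiquitin ligase that binds microtubules, and in laboratory mice the gene spans the boundary of the pseudoautosomal region of the X chromosome. Bcl2a1d and Bcl2a1b belong to a cluster of nearly identical mouse copies of the gene for A1, an inhibitor of apoptosis of the BCL2 family used by blood cells. Hes1 encodes a transcriptional repressor that is a classical target of Notch receptors and is also induced by other signals. AI506816 is a gene known by the name of its sequence tag and is counted here with the long noncoding RNAs.

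In all, 12806 barcodes with 119355147 UMIs were deposited for LPCAT3-AKO and 13831 barcodes with 111669076 UMIs for control. After filtering, 10576 LPCAT3-AKO and 11191 control cells remained, with medians of 8599.5 and 8078 UMIs, and 36 barcode sequences occurred among the kept cells of both libraries. Cells were typed one by one by how many markers of a class had a UMI, so classes carry the ending "-like". There were 5347 LPCAT3-AKO and 5314 control cells like adipose stem and progenitor cells (ASPC-like), and 3010 and 4069 macrophage/monocyte-like cells. The other classes compared, each with at least 100 cells per library, were dendritic cell-like (174 and 222), T cell-like (145 and 106) and vascular endothelial-like cells (106 and 109). Values are also given for 3 smaller classes: NK cell-like cells (59 in LPCAT3-AKO and 91 in control), epithelial-like cells (168 and 94) and cells like mast cells or basophils (57 and 67). In the other 7 classes, the summed level of the 10 ASPC markers was 1.51% to 2.70% of that in ASPC-like cells, a measure of stray RNA or mixed barcodes.

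Levels are UMIs of a gene per 1000000 UMIs of the class in that library (CPM), and each ratio is LPCAT3-AKO over control. Intervals are 95% intervals that cover counting error only. The term "past the size rule" means at least 20 CPM in whichever library was higher, a 1.5-fold or larger ratio in either direction and a counting interval that excludes 1. Class-stratified ratios compare the libraries within each of the 8 classes and weight each class by its UMIs. Where ratios differ between classes, the large classes weigh most. Differences of mixture within a class remain. Over the 6512 genes at 20 CPM or more, the median class-stratified log2 ratio was 0.01, and 1.03% of genes were higher and 0.584% lower by 1.5-fold or more.

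Lpcat3, the gene named in the genotype, did not differ beyond counting error in the large classes. It had 28.9 CPM in LPCAT3-AKO and 26.8 CPM in control ASPC-like cells, a ratio of 1.08 (0.998 to 1.16), and 23.0 and 21.1 CPM in LPCAT3-AKO and control macrophage/monocyte-like cells, a ratio of 1.09 (0.970 to 1.22). Mature adipocytes were removed from this fraction, and no cell passed the adipocyte gate. A UMI outside the deleted part would be counted all the same, so Lpcat3 counts do not check the labels here.

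Atp5k was higher in the LPCAT3-AKO library in all 8 classes. It stood at 228 CPM in LPCAT3-AKO and 142 CPM in control ASPC-like cells, and at 276 and 173 CPM in LPCAT3-AKO and control macrophage/monocyte-like cells. Dendritic cell-like cells had 197 CPM in LPCAT3-AKO and 130 CPM in control, T cell-like cells 236 and 151 CPM, and vascular endothelial-like cells 290 and 181 CPM. The 5 ratios lay between 1.52 and 1.61, all 5 were past the size rule, and their counting intervals all overlapped. Of the 3537 genes measured at 20 CPM or more in all 5 classes, 1 (0.0283%) was past the rule as higher in all 5, and that was Atp5k. The rate of genes past the rule as higher was 1.42% in ASPC-like, 1.16% in macrophage/monocyte-like, 4.99% in dendritic cell-like, 3.15% in T cell-like and 4.22% in vascular endothelial-like cells.

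In the smaller classes, where 7.18% (epithelial-like), 2.5% (mast cell/basophil-like) and 2.95% (NK cell-like) of measured genes were past the rule as higher, the ratios of Atp5k were further from 1. Of the 3537 genes, 7.8% had a log2 ratio above 0 in all 5 compared classes. Epithelial-like cells had 459 CPM in LPCAT3-AKO and 230 CPM in control, a ratio of 1.99 (1.79 to 2.23), which is above the class-stratified ratio of 1.62 (1.59 to 1.66). NK cell-like cells had 333 CPM in LPCAT3-AKO and 157 CPM in control, a ratio of 2.13 (1.42 to 3.23). Mast cell/basophil-like cells held 19 UMIs in LPCAT3-AKO and 8 UMIs in control. The share of cells with a UMI was likewise higher in LPCAT3-AKO. For this, cells were thinned to 2000 UMIs, and cells with fewer were left out. That kept 5247 LPCAT3-AKO and 5196 control ASPC-like cells, and 2874 and 3817 macrophage/monocyte-like cells. After thinning, 35.2% of LPCAT3-AKO and 24.1% of control ASPC-like cells had a UMI of Atp5k. In macrophage/monocyte-like cells the shares were 36.8% in LPCAT3-AKO and 27.8% in control.

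**Figure D1:**
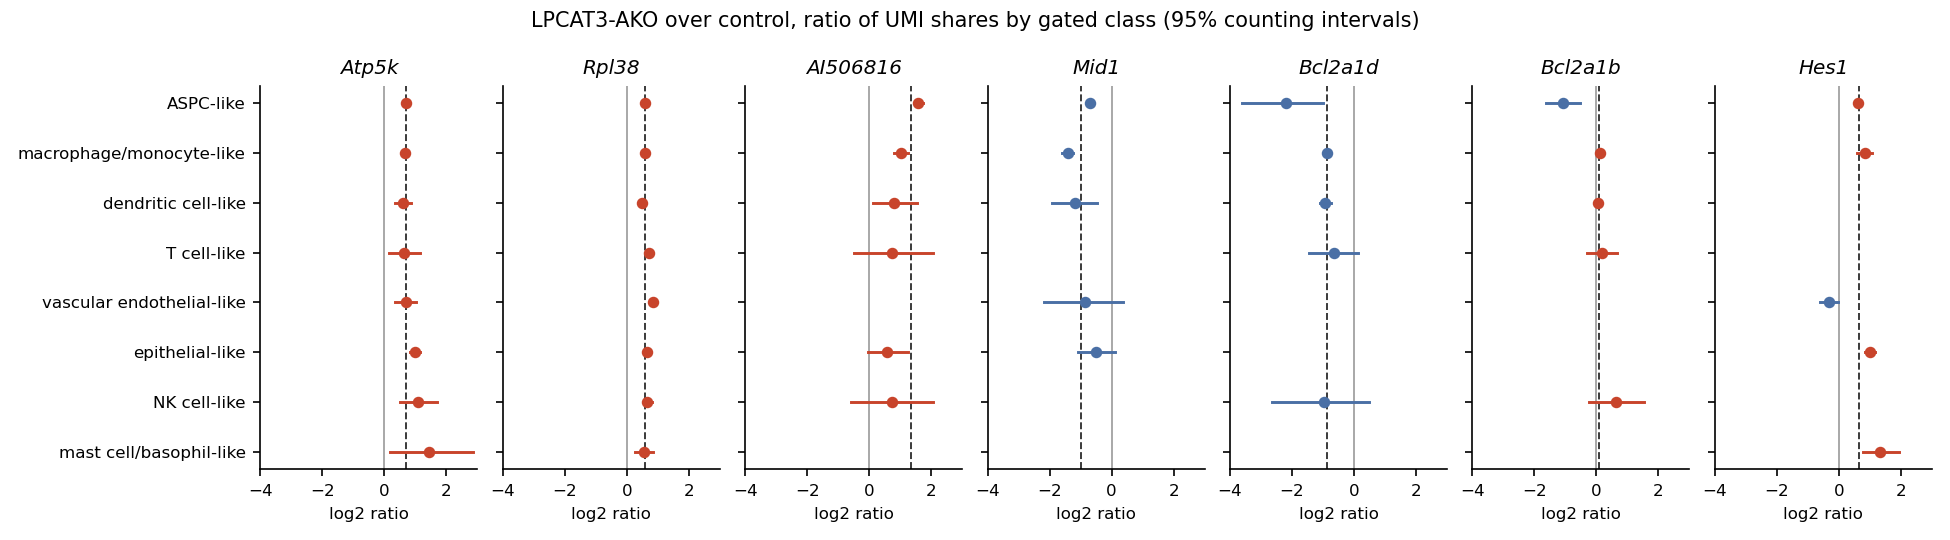
Ratio of LPCAT3-AKO over control UMI shares on a log2 axis, for each gene (panels) and gated class (rows), with 95% counting intervals, for classes with 20 or more UMIs of the gene in both libraries together. Red points lie above 0 and blue points below, the dashed line is the class-stratified ratio and the grey line equal levels. Atp5k and Rpl38 lie to the right of the grey line in all 8 classes, while Hes1 lies to the left in vascular endothelial-like cells.

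Rpl38 was also higher in all 8 classes and, being far more abundant, was counted with much smaller error. ASPC-like cells had 2647 CPM in LPCAT3-AKO and 1744 CPM in control, a ratio of 1.52 (1.5 to 1.53). Macrophage/monocyte-like cells had 1833 CPM in LPCAT3-AKO and 1230 CPM in control, a ratio of 1.49 (1.47 to 1.51). The ratio was 1.41 (1.36 to 1.48) in dendritic cell-like cells, with 3266 CPM in LPCAT3-AKO and 2308 CPM in control. T cell-like cells had 4278 CPM in LPCAT3-AKO and 2612 CPM in control (1.64, 1.52 to 1.77), and vascular endothelial-like cells 1785 and 988 CPM (1.81, 1.64 to 1.99). Rpl38 was past the size rule in 3 of the 5 compared classes. Macrophage/monocyte-like cells fell just short of 1.5-fold, and in dendritic cell-like cells the whole counting interval lay below 1.5-fold. Of the 3537 genes, 0.17% were past the rule as higher in 3 or more classes.

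The ratios of Rpl38 were close but not equal. The counting intervals of 4 of the 8 classes included the class-stratified ratio of 1.51 (1.5 to 1.52), and dendritic cell-like and vascular endothelial-like cells did not overlap. Ratios in the smaller classes were 1.56 (1.51 to 1.62) in epithelial-like, 1.58 (1.42 to 1.76) in NK cell-like and 1.46 (1.2 to 1.78) in mast cell/basophil-like cells. The lowest value within the size rule was that of Rpl38 in ASPC-like cells, at 1.52, and Atp5k in dendritic cell-like cells came next, also at 1.52. Among the 5 compared classes, the values furthest from 1 that the rule left out for their counting interval alone were 0.556 (0.220 to 1.3) for Mid1 in vascular endothelial-like cells and 1.65 (0.710 to 4.13) for AI506816 in T cell-like cells.

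**Figure D2:**
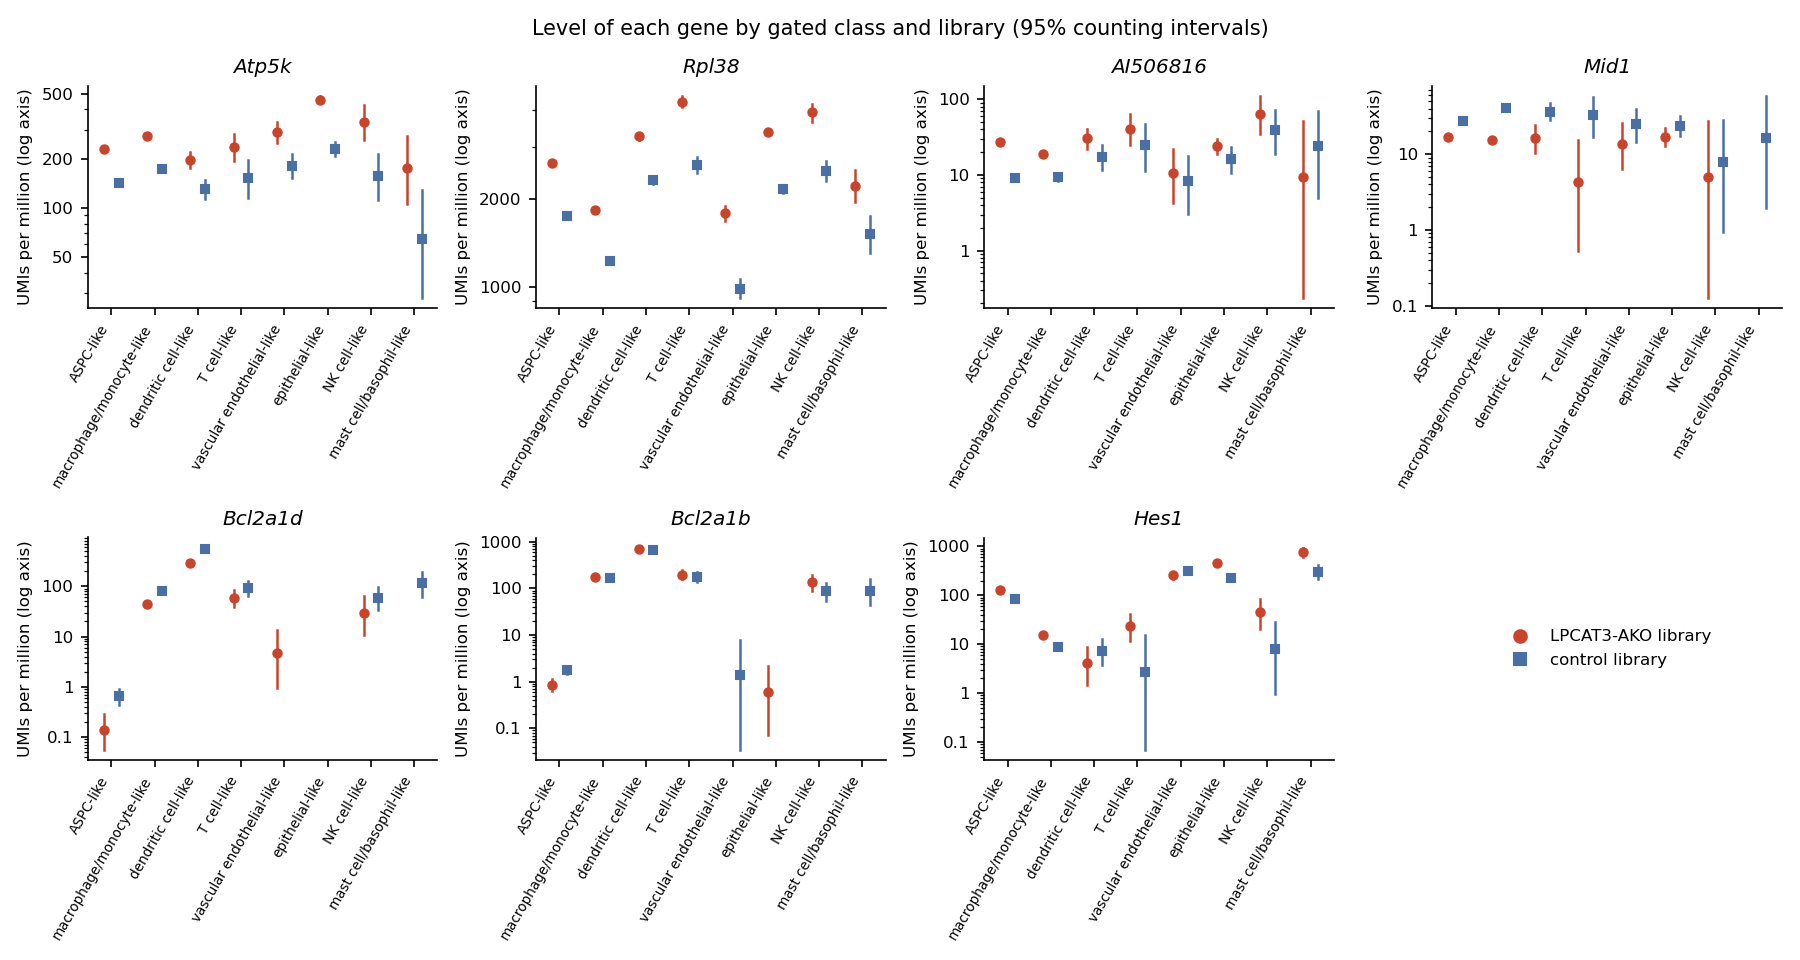
Level of each gene in CPM (log axis) in the 8 gated classes, with the LPCAT3-AKO library as red circles and the control library as blue squares; bars are 95% counting intervals, and a class with no UMI has no symbol. Atp5k spans 176 to 459 CPM in LPCAT3-AKO classes and Hes1 4.07 to 760 CPM, so the level of Atp5k was much more alike between classes than that of Hes1.

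Atp5k and Rpl38 stood at the top of their own gene families. Among 20 measured ATP synthase genes, Atp5k had the highest log2 ratio in ASPC-like, macrophage/monocyte-like and vascular endothelial-like cells and the second highest in dendritic cell-like and T cell-like cells. The family's median log2 ratio was 0.02 in ASPC-like cells, beside 0.00 over all measured genes, and 0.14 in macrophage/monocyte-like cells, beside 0.03. The other high gene was mt-Atp8, the mitochondrial gene of a very small subunit. It had 72.6 CPM in LPCAT3-AKO and 40.8 CPM in control dendritic cell-like cells, was past the size rule there and in T cell-like and vascular endothelial-like cells, and had log2 ratios of 0.56 in ASPC-like and 0.40 in macrophage/monocyte-like cells. Besides Atp5k and mt-Atp8, Atp5f1 and Atp5h, of the stator stalk, were past the rule as lower in T cell-like cells, with log2 ratios of -0.66 and -0.61.

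Among 82 measured cytosolic ribosomal protein genes, Rpl38 had rank 1 from the highest log2 ratio in macrophage/monocyte-like and vascular endothelial-like cells, rank 2 in ASPC-like, rank 3 in dendritic cell-like and rank 4 in T cell-like cells. The family's median log2 ratio was -0.14 in ASPC-like, -0.02 in macrophage/monocyte-like, -0.14 in dendritic cell-like, 0.05 in T cell-like and -0.03 in vascular endothelial-like cells. Rps29, a small protein of the small subunit, was past the rule as higher in 4 of the 5 classes. Its level was 5215 CPM in LPCAT3-AKO and 3373 CPM in control ASPC-like cells, and 6779 and 4871 CPM in LPCAT3-AKO and control macrophage/monocyte-like cells, where its log2 ratio of 0.48 missed the rule. Rps28, also of the small subunit, had 5320 CPM in LPCAT3-AKO and 3504 CPM in control dendritic cell-like cells and was past the rule there and in T cell-like cells. No ribosomal protein gene was past the rule as lower in these 5 classes.

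The genes for the smallest proteins of the ribosome lay above 0 together in 7 of the 8 classes, while the median of the rest was lower in all 8. For 10 genes of small ribosomal proteins other than Rpl38, the median log2 ratio was 0.33 in ASPC-like, 0.33 in macrophage/monocyte-like, 0.28 in dendritic cell-like, 0.46 in T cell-like and 0.34 in vascular endothelial-like cells, and all 10 were above 0 in each. For the other 71 ribosomal protein genes the medians were -0.15, -0.04, -0.16, 0.02 and -0.05 in the same classes, with 4, 24, 6, 45 and 24 of the 71 above 0. Epithelial-like and NK cell-like cells had small-protein medians of 0.46 and 0.44 with 10 of 10 above 0, and mast cell/basophil-like cells 0.12 with 6 of 10. Of small mitochondrial and other proteins without Atp5k, 16 of 25 were above 0 in ASPC-like cells (median 0.11) and 24 of 26 in macrophage/monocyte-like cells (median 0.15). Ndufb1-ps and Ndufa3, of respiratory complex I, came close to the rule with log2 ratios of 0.57 and 0.53 in ASPC-like cells and 0.57 and 0.51 in macrophage/monocyte-like cells, and Polr2l, a shared RNA polymerase subunit, was past it in macrophage/monocyte-like cells at 46.6 CPM in LPCAT3-AKO and 30.8 CPM in control. The list of small proteins was written with earlier results of these libraries known, and whether transcript length or library preparation had a part in these values was not tested.

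**Figure D3:**
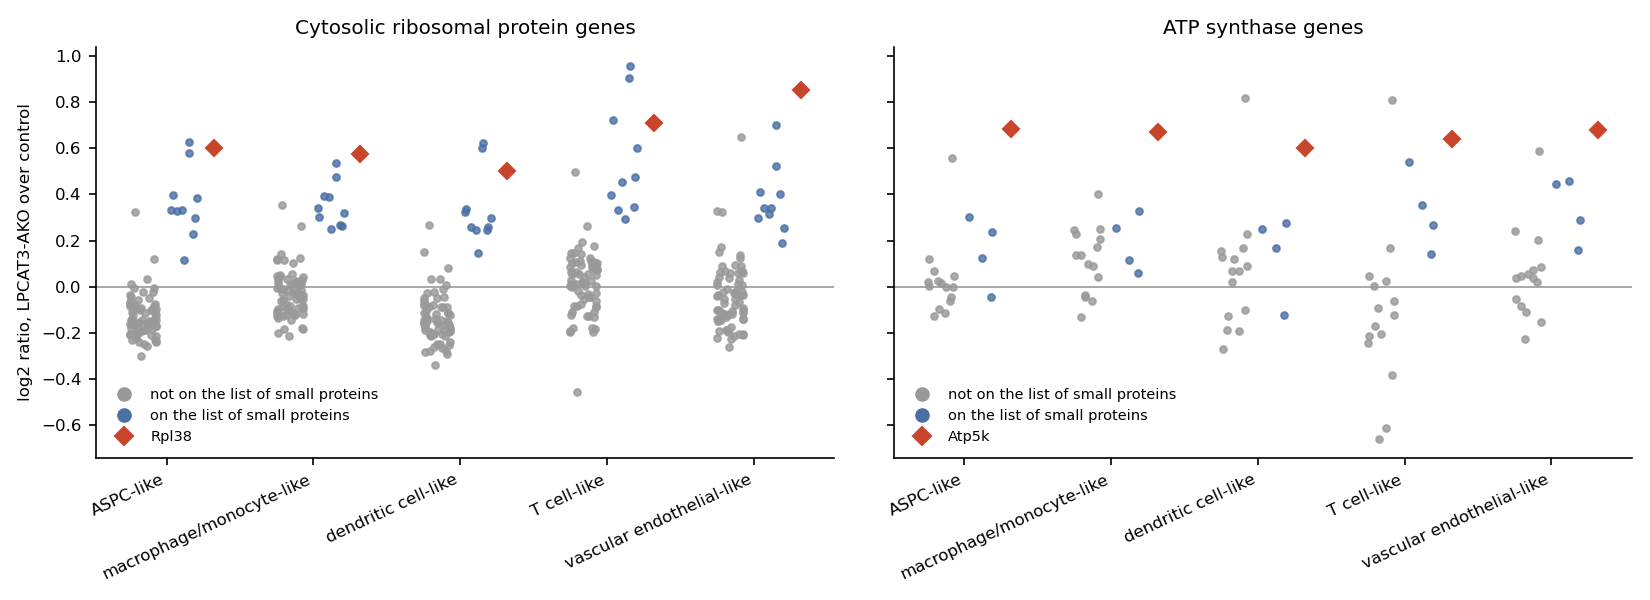
Log2 ratio of LPCAT3-AKO over control for each measured cytosolic ribosomal protein gene (left) and ATP synthase gene (right) in the 5 compared classes. Grey dots are genes not on the list of small proteins, blue dots genes on it, and red diamonds Rpl38 or Atp5k. The blue dots of the left panel all lie above 0, and the red diamonds lie at 0.50 to 0.85 for Rpl38 and 0.60 to 0.68 for Atp5k.

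AI506816 had the widest stratified ratio of the 7 genes, 2.53 (2.33 to 2.74), and the ratio differed between classes. ASPC-like cells had 27.4 CPM in LPCAT3-AKO and 9.13 CPM in control, a ratio of 3.01 (2.70 to 3.35). Macrophage/monocyte-like cells had 19.1 CPM in LPCAT3-AKO and 9.46 CPM in control, a ratio of 2.02 (1.74 to 2.36), which falls outside the rule for its level alone. The intervals of these 2 ratios did not overlap. Dendritic cell-like cells had 30.5 and 17.4 CPM in LPCAT3-AKO and control, a ratio of 1.76 (1.08 to 2.90), and with ASPC-like cells made the 2 classes past the rule. Epithelial-like cells had 24.2 CPM in LPCAT3-AKO and 16.1 CPM in control on 80 and 29 UMIs, a ratio of 1.5 (0.971 to 2.38). The other classes held few UMIs, such as 19 in LPCAT3-AKO and 9 in control T cell-like cells and 7 and 6 in LPCAT3-AKO and control vascular endothelial-like cells, and their intervals included 1. In thinned ASPC-like cells, 5.18% of LPCAT3-AKO and 1.62% of control cells had a UMI.

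No other long noncoding RNA on the list behaved in this way. Of 15 measured in ASPC-like cells, AI506816 alone was past the rule, and the next highest was Snhg18 with a log2 ratio of 0.57. The list's median log2 ratio was -0.05 in ASPC-like, 0.03 in macrophage/monocyte-like and 0.08 in dendritic cell-like cells. Snhg3, a host gene of small nucleolar RNAs, was past the rule as lower in macrophage/monocyte-like cells, with 13.9 CPM in LPCAT3-AKO and 23.2 CPM in control. In T cell-like cells Snhg12 and Snhg8 were past it as higher (log2 ratios of 1.05 and 0.68) and Neat1, Meg3 and Snhg20 as lower, in dendritic cell-like cells Snhg12 was past it as lower (log2 ratio of -0.60), and in vascular endothelial-like cells Meg3, Kcnq1ot1 and Snhg1 as lower.

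Mid1 was lower in the LPCAT3-AKO library in each of the 5 classes with 20 or more UMIs. ASPC-like cells had 17.0 CPM in LPCAT3-AKO and 27.6 CPM in control, a ratio of 0.615 (0.564 to 0.671). Macrophage/monocyte-like cells had 15.4 CPM in LPCAT3-AKO and 41.2 CPM in control, a ratio of 0.373 (0.332 to 0.418), so the 2 intervals did not overlap. In dendritic cell-like cells the levels were 16.3 CPM in LPCAT3-AKO and 36.6 CPM in control, a ratio of 0.445 (0.265 to 0.725). In T cell-like cells there were 2 UMIs in LPCAT3-AKO and 12 UMIs in control, a ratio of 0.130 (0.0141 to 0.584).

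These 4 classes were past the size rule as lower, and of the 3537 genes measured in all 5 classes 0.0565% were lower in 4 or more. The rate of genes past the rule as lower was 0.844% in ASPC-like, 0.555% in macrophage/monocyte-like, 2.72% in dendritic cell-like, 4.76% in T cell-like and 4.1% in vascular endothelial-like cells. It was 5.19% in epithelial-like, 2.39% in mast cell/basophil-like and 2.46% in NK cell-like cells. Of the 3537 genes, 0.198% were lower in 3 or more classes and 5.71% had a log2 ratio below 0 in all 5. Vascular endothelial-like cells had 13.8 and 24.8 CPM in LPCAT3-AKO and control and epithelial-like cells 16.9 and 23.9 CPM, with intervals that included 1. The LPCAT3-AKO levels of Mid1 were alike, between 13.8 and 17.0 CPM in the 5 classes with 20 or more UMIs, against 23.9 to 41.2 CPM in control.

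The measured genes listed before Mid1 did not share its class-stratified ratio. No measured gene beyond it lay within 100 rows of the gene list, so that side was not seen. Of the genes of the pseudoautosomal region and its border, Msl3, a chromatin protein, had 45.1 CPM in LPCAT3-AKO and 37.9 CPM in control ASPC-like cells, and Arhgap6, a GTPase-activating protein, 45.4 and 40.3 CPM. Besides Mid1, no measured gene of that list was past the rule in the 5 classes, but few were measured. Msl3 and Arhgap6, both listed before Mid1, were the only others measured in ASPC-like and dendritic cell-like cells. Macrophage/monocyte-like cells had 4 others, and T cell-like and vascular endothelial-like cells 3 each. Whether the pseudoautosomal region itself differed was not tested. Among relatives and partners of MID1, Igbp1, which links MID1 to protein phosphatase 2A, had 45.1 CPM in LPCAT3-AKO and 43.1 CPM in control ASPC-like cells, and Ppp2ca, the catalytic subunit of that phosphatase, had 104 and 116 CPM. None of these relatives and partners other than Mid1 was past the rule in the 5 classes. Of the 19 genes listed as varying between mouse strains, none was past the rule in ASPC-like (9 measured), macrophage/monocyte-like (8) or dendritic cell-like cells (7). In the smaller classes, 1 of 5 measured was past it as higher in epithelial-like and 1 of 8 in mast cell/basophil-like cells. NK cell-like cells had 1 higher and 1 lower of 11. Few of the list were measured, and a difference of strain background was not tested. Ly6a, a surface antigen of lymphocytes and stem cells, was lower in T cell-like cells (204 CPM in LPCAT3-AKO, 314 CPM in control), and Btbd9 higher in vascular endothelial-like cells (28 UMIs in LPCAT3-AKO, 14 UMIs in control).

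**Figure D4:**
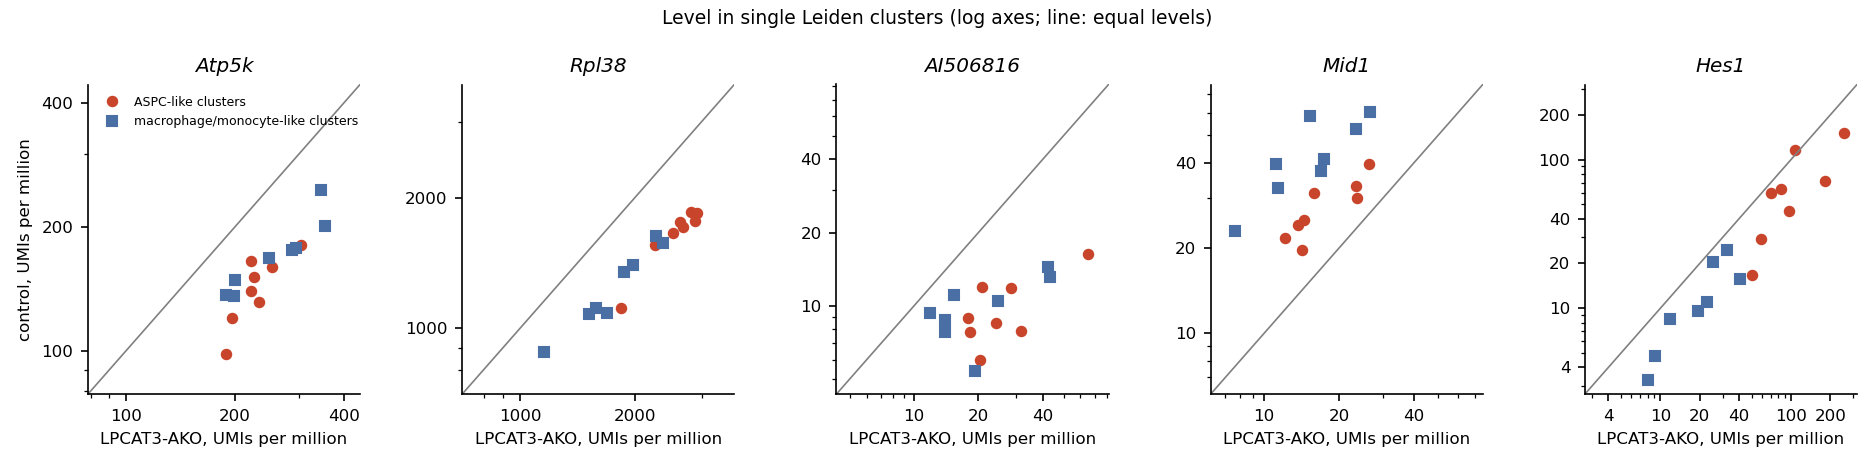
Level of 5 genes in single Leiden clusters with 50 or more cells in both libraries and 20 or more UMIs of the gene, LPCAT3-AKO on the horizontal and control on the vertical axis (both log axes, CPM). Red circles are clusters led by ASPC markers, blue squares clusters led by macrophage/monocyte markers, and the line marks equal levels. The clusters lie below the line for Atp5k, Rpl38 and AI506816 and above it for Mid1, and 1 ASPC-like cluster lies above it for Hes1.

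Cell states within a class gave the same direction for 4 of the genes. In 8 ASPC-like and 8 macrophage/monocyte-like Leiden clusters, the ratio was above 1 in all 16 for Atp5k (1.34 to 1.92 in ASPC-like and 1.34 to 1.76 in macrophage/monocyte-like clusters). The same held for Rpl38, at 1.45 to 1.66 in ASPC-like and 1.31 to 1.57 in macrophage/monocyte-like clusters, and for AI506816, at 1.75 to 4.02 and 1.26 to 3.58. Mid1 was below 1 in all 16, at 0.509 to 0.781 in ASPC-like and 0.261 to 0.453 in macrophage/monocyte-like clusters. Not all of these counting intervals excluded 1. They did in 8 ASPC-like and 7 macrophage/monocyte-like clusters for Atp5k, and in 8 and 8 for Rpl38. For AI506816 they did in 7 and 5, and for Mid1 in 6 and 7. The share of all genes with 1 direction in all 16 clusters was not computed, and these genes were chosen for a common direction. Hes1 was above 1 in all 8 macrophage/monocyte-like clusters and in 7 of 8 ASPC-like clusters, with 0.925 (0.834 to 1.03) in the other. Its intervals lay above 1 in 4 macrophage/monocyte-like and 6 ASPC-like clusters. Bcl2a1d was below 1 in 6 of 7 macrophage/monocyte-like clusters, at 0.338 to 1.03. Bcl2a1b had no common direction, with 3 of 8 macrophage/monocyte-like clusters above 1 and 5 below, from 0.545 to 1.28. The cluster led by vascular endothelial markers had 26.2 CPM of AI506816 in LPCAT3-AKO and 5.88 CPM in control, a ratio of 4.46 (2.59 to 8.16). For Mid1 this cluster had 13.1 CPM in LPCAT3-AKO and 23.5 CPM in control, a ratio of 0.558 (0.369 to 0.836). The clusters were made from the same cells, so they show spread between states and are not replicates.

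Bcl2a1d was lower in the LPCAT3-AKO library where the A1 genes are used, in immune cells. Macrophage/monocyte-like cells had 43.5 CPM in LPCAT3-AKO and 78.9 CPM in control, a ratio of 0.551 (0.513 to 0.592). Dendritic cell-like cells, in which the gene was highest, had 290 CPM in LPCAT3-AKO and 550 CPM in control, a ratio of 0.527 (0.469 to 0.592). In T cell-like cells it had 58.0 and 90.8 CPM in LPCAT3-AKO and control, a ratio of 0.638 (0.369 to 1.09), and NK cell-like cells 29.9 and 58.8 CPM, a ratio of 0.508 (0.161 to 1.38). The gene was past the size rule as lower in 2 of the 3 compared classes in which it was measured at 20 CPM or more. Of the 3537 genes measured in all 5 classes, a set without Bcl2a1d, 0.622% were lower in 2 or more of the 5.

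Outside those cells its counts were near nothing. ASPC-like cells held 7 UMIs in LPCAT3-AKO and 32 UMIs in control, that is 0.140 and 0.642 CPM. Those levels are below the 0.554 and 0.890 CPM that the macrophage RNA found in LPCAT3-AKO and control ASPC-like cells would carry, so they are read as background. Epithelial-like cells held 0 UMIs in both libraries, and vascular endothelial-like cells 3 in LPCAT3-AKO and 0 in control. Mast cell/basophil-like cells held 0 UMIs in LPCAT3-AKO and 14 UMIs in control, 92.9% of them from a single cell.

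The companion copy Bcl2a1b differed little in macrophage/monocyte-like and dendritic cell-like cells taken whole. It had 179 CPM in LPCAT3-AKO and 167 CPM in control macrophage/monocyte-like cells, a ratio of 1.07 (1.03 to 1.12), and 704 and 674 CPM in LPCAT3-AKO and control dendritic cell-like cells, a ratio of 1.05 (0.960 to 1.14). In T cell-like cells it had 198 CPM in LPCAT3-AKO and 176 CPM in control, with an interval of the ratio from 0.807 to 1.57. NK cell-like cells had 134 and 86.3 CPM in LPCAT3-AKO and control, a ratio of 1.56 (0.854 to 2.87) on 27 and 22 UMIs. It was past the rule in none of the 5 classes, so the label of a shift in many classes does not hold for this gene. In ASPC-like cells the 0.859 CPM of LPCAT3-AKO and 1.81 CPM of control lie below the 2.28 and 1.88 CPM that macrophage RNA would carry. Another copy, Bcl2a1a, had 64.3 CPM in LPCAT3-AKO and 55.7 CPM in control macrophage/monocyte-like cells, a ratio of 1.15 (1.08 to 1.24).

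The split of UMIs among the 3 copies therefore differed while their sum differed less. Bcl2a1d held 15.2% (14.4% to 16.0%) of the Bcl2a1a, Bcl2a1b and Bcl2a1d UMIs in LPCAT3-AKO and 26.2% (25.2% to 27.1%) in control macrophage/monocyte-like cells. In dendritic cell-like cells its share was 20.9% (19.2% to 22.7%) in LPCAT3-AKO and 34.4% (32.6% to 36.3%) in control. The shares were 22.0% and 31.7% in LPCAT3-AKO and control T cell-like cells and 16.7% and 39.5% in NK cell-like cells, with overlapping exact intervals in both. The sum of the 3 copies had a ratio of 0.951 (0.922 to 0.981) in macrophage/monocyte-like and 0.868 (0.819 to 0.920) in dendritic cell-like cells. Because the copies are nearly identical, reads can be split between them by the counting or by sequence differences between mice, and the levels of single copies are uncertain.

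**Figure D5:**
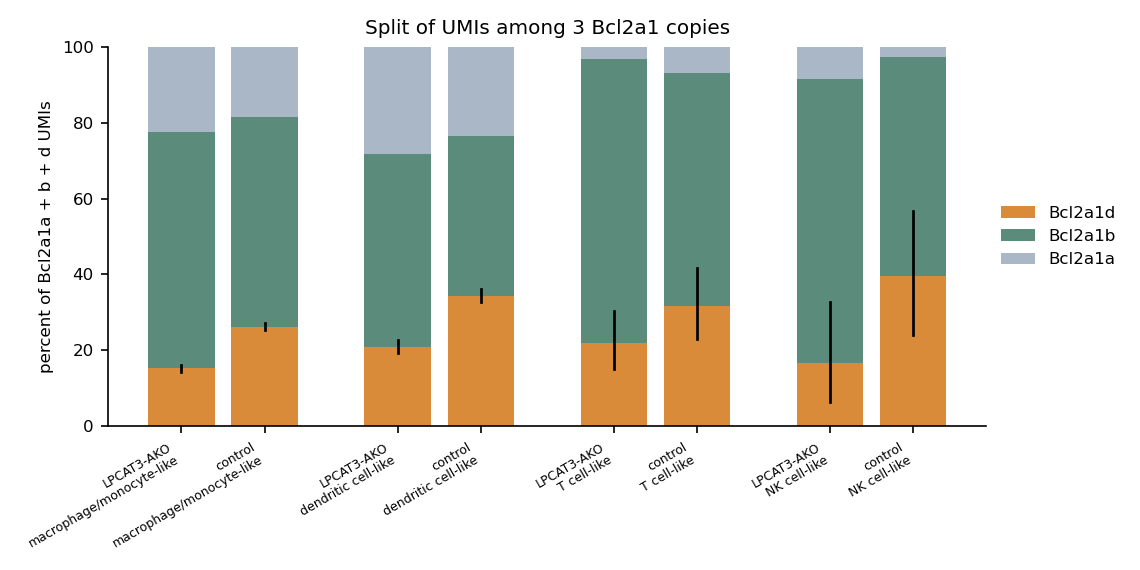
Percent of all Bcl2a1a, Bcl2a1b and Bcl2a1d UMIs held by each copy, in 4 gated immune classes, with LPCAT3-AKO left of control in each pair. Black lines are exact 95% intervals of the Bcl2a1d share. The Bcl2a1d share is lower in LPCAT3-AKO in each pair, at 15.2% against 26.2% in macrophage/monocyte-like cells.

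Cells with one copy tended to have the other in both libraries. After thinning, Bcl2a1b was found in 56.2% of LPCAT3-AKO macrophage/monocyte-like cells with a UMI of Bcl2a1d and in 16.2% of those without. In control the shares were 59.4% and 12.1%. In the rest of the BCL2 family, Bcl2l1, the gene for the anti-apoptotic BCL-XL, was past the rule as lower in macrophage/monocyte-like cells, with 26.0 CPM in LPCAT3-AKO and 39.6 CPM in control. Pmaip1, which encodes the pro-apoptotic protein NOXA, was past it as lower in T cell-like cells on 6 UMIs in LPCAT3-AKO and 15 UMIs in control. Mcl1, an anti-apoptotic member, had 1250 CPM in LPCAT3-AKO and 1332 CPM in control macrophage/monocyte-like cells. No BCL2 family gene was past the rule in ASPC-like (5 measured) or vascular endothelial-like cells (11 measured), and the family's median log2 ratio was 0.00 in ASPC-like and 0.07 in macrophage/monocyte-like cells.

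Hes1 was higher in LPCAT3-AKO in 6 of the 8 classes, with a level and a ratio that varied widely between them. ASPC-like cells had 127 CPM in LPCAT3-AKO and 83.1 CPM in control, a ratio of 1.53 (1.47 to 1.59). Macrophage/monocyte-like cells had 15.2 CPM in LPCAT3-AKO and 8.57 CPM in control, a ratio of 1.78 (1.51 to 2.09). Those levels are below 20 CPM, and above the 2.4 and 1.87 CPM that the ASPC RNA in LPCAT3-AKO and control macrophage/monocyte-like cells would carry. T cell-like cells held 11 UMIs in LPCAT3-AKO and 1 UMI in control, a ratio of 8.58 (1.25 to 369), and NK cell-like cells held 9 and 2 UMIs in LPCAT3-AKO and control. Of the 3 compared classes in which Hes1 was measured, ASPC-like and T cell-like cells were past the rule. Of the 3537 genes measured in all 5 classes, a set without Hes1, 1.02% were higher in 2 or more of the 5.

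The classes with the highest Hes1 went in different directions. Mast cell/basophil-like cells had 760 CPM in LPCAT3-AKO and 300 CPM in control, a ratio of 2.54 (1.70 to 3.85), on 82 UMIs in LPCAT3-AKO and 37 UMIs in control. Epithelial-like cells had 458 CPM in LPCAT3-AKO and 228 CPM in control, a ratio of 2.01 (1.80 to 2.25). By contrast, vascular endothelial-like cells had 255 CPM in LPCAT3-AKO and 319 CPM in control, a ratio of 0.799 (0.651 to 0.980). Dendritic cell-like cells had 6 UMIs in LPCAT3-AKO and 12 UMIs in control, too few for a direction. The class-stratified ratio was 1.56 (1.51 to 1.62), and the intervals of 2 of the 5 classes with 20 or more UMIs included it.

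The endothelial value depended on how cells were chosen. The Leiden cluster led by vascular endothelial markers held 312 LPCAT3-AKO and 247 control cells. Only 106 and 109 cells passed the gate, so the cluster also held cells outside it. It had 606 CPM of Hes1 in LPCAT3-AKO and 418 CPM in control, a ratio of 1.45 (1.35 to 1.56). In the gated vascular endothelial-like cells themselves, the shares after thinning were 31.0% in LPCAT3-AKO and 30.3% in control. The summed level of the 10 mural cell markers was 556 CPM in LPCAT3-AKO and 805 CPM in control gated cells, with all 10 lower in LPCAT3-AKO, and their part in the Hes1 value was not tested. Notch3, a receptor of mural cells, had 3 UMIs in LPCAT3-AKO and 22 UMIs in control there, and Id4, a helix-loop-helix inhibitor, 2 and 35 UMIs.

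Other genes of the Notch pathway did not share the ratio of Hes1. In ASPC-like cells 20 of the list were measured and Hes1 alone was past the rule, with a list median log2 ratio of 0.06. Rbpj, the DNA-binding partner of Notch, had 203 CPM in LPCAT3-AKO and 195 CPM in control ASPC-like cells, Psenen, a subunit of gamma-secretase, 104 and 96.8 CPM, and Id3 742 and 957 CPM. In macrophage/monocyte-like cells none of 17 measured genes was past the rule. Tle4, a co-repressor that binds HES proteins, was past it as higher in T cell-like cells (180 CPM in LPCAT3-AKO, 116 CPM in control) and dendritic cell-like cells (36.0 and 22.8 CPM). Lfng, which modifies Notch receptors, was lower in T cell-like cells on 16 UMIs in LPCAT3-AKO and 29 UMIs in control.

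The ratios also varied with the depth of the cells. When macrophage/monocyte-like cells were split into 3 bins by UMIs, with limits of 5270 and 8757.67 UMIs common to both libraries, the ratio of Atp5k was 1.14, 1.29 and 1.70 from the shallowest to the deepest bin. Over the same bins Bcl2a1d had 0.737, 0.758 and 0.413, Bcl2a1b 1.39, 1.49 and 0.803, and Hes1 1.08, 1.56 and 2.88. The deepest bin held 1231 LPCAT3-AKO and 1129 control cells, and the shallowest 801 and 1557. Rpl38 had 1.28, 1.44 and 1.53, AI506816 1.75, 1.67 and 2.27, and Mid1 0.269, 0.445 and 0.369. In ASPC-like cells Rpl38 had 1.51, 1.54 and 1.52, Atp5k 1.54, 1.65 and 1.62, Mid1 0.682, 0.551 and 0.618, Hes1 2.00, 1.66 and 1.4, and AI506816 2.21, 2.52 and 3.69. Top2a, a marker of dividing cells chosen after its values were seen, had 133 CPM in LPCAT3-AKO and 51.8 CPM in control macrophage/monocyte-like cells, and its part in these values was not tested.

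How constant a ratio was depended on the classes set side by side. Over the 5 compared classes the log2 ratio of Atp5k lay between 0.60 and 0.68 and that of Rpl38 between 0.50 and 0.85. Over the 8 classes Atp5k reached 1.43, in mast cell/basophil-like cells with few UMIs, and Rpl38 stayed within 0.50 to 0.85. Among classes with 20 or more UMIs, the log2 ratio of AI506816 lay between 0.56 and 1.49, that of Mid1 between -1.37 and -0.47 and that of Hes1 between -0.32 and 1.34. Counting intervals included the class-stratified ratio in 7 of 8 classes for Atp5k, 4 of 5 for Bcl2a1d and for Bcl2a1b, 3 of 5 for Mid1 and 3 of 6 for AI506816. The class-stratified ratios of Mid1 and Bcl2a1d were 0.508 (0.476 to 0.543) and 0.541 (0.509 to 0.574), and that of Bcl2a1b was 1.06 (1.02 to 1.10).

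Few other genes went past the size rule in as many classes. Rps29 as higher and Ifit1 as lower were past it in 4 of the 5 classes, and 14 further genes as higher and 7 as lower in 3. This count includes genes not measured in all 5 classes. Left out of it were genes named Gm with digits or ending in Rik, ribosomal protein pseudogenes, and haemoglobin, immunoglobulin and sex-linked genes such as Xist. Of the 3537 genes measured in all 5 classes, 0.17% were higher and 0.198% lower in 3 or more. Likeness was measured as the number of classes past the rule in 1 direction, with ties ordered by the smaller span of the log2 ratio. Ifit1, Rsad2 and Ifit3 are interferon-induced antiviral genes. Rsad2 had 300 CPM in LPCAT3-AKO and 705 CPM in control macrophage/monocyte-like cells, and Ifit1 122 CPM in LPCAT3-AKO and 232 CPM in control ASPC-like cells. Apoe, a lipid carrier, had 6950 CPM in LPCAT3-AKO and 10573 CPM in control macrophage/monocyte-like cells, and Cxcl1, a chemokine for neutrophils, 675 and 1222 CPM in LPCAT3-AKO and control ASPC-like cells. The 14 higher genes were mt-Atp8, Nmt1, which encodes a protein myristoyltransferase, AC149090.1, Lig1, a DNA ligase of replication, Stmn1, a microtubule regulator, and 9 genes known for their part in cell division: Birc5, Tpx2, Top2a, Cenpe, Kif11, Mki67, Ube2c, Cenpf and Ccnb2. These last 10 ranked below the rule for naming and are named after their values were seen. Their direction was not the same in every class: Cenpf had 40.0 CPM in LPCAT3-AKO and 11.5 CPM in control macrophage/monocyte-like cells, and 19.3 and 55.0 CPM in LPCAT3-AKO and control T cell-like cells. Nmt1 had 113 CPM in LPCAT3-AKO and 80.0 CPM in control macrophage/monocyte-like cells, and Lig1 41.9 and 22.0 CPM. The lower genes that ranked below the rule for naming were Gdpd3, Ccl2 and Mt2, also named after their values were seen. Gdpd3 had 8.04 CPM in LPCAT3-AKO and 68.8 CPM in control macrophage/monocyte-like cells, and 3.07 and 197 CPM in vascular endothelial-like cells. Its log2 ratio lay between -5.61 and -2.02 over the 5 compared classes. Mt2 was higher in dendritic cell-like cells, with 206 CPM in LPCAT3-AKO and 103 CPM in control.

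Neighbours were taken as the nearest genes with 20 CPM or more in the order of the deposited gene list, up to 10 on either side and within 100 rows. The median class-stratified log2 ratio of the neighbours was -0.02 for Atp5k, 0.08 for Rpl38, 0.03 for AI506816, -0.01 for Hes1 and -0.10 for Bcl2a1d. The 20 neighbours of Bcl2a1d ranged widely, from -0.61 to 0.76. Among them 1 was higher and 1 lower by 1.5-fold or more, beside 1.03% and 0.584% of all genes at 20 CPM or more. The gene listed next to Rpl38, Ttyh2, a chloride channel gene, had 31.0 CPM in LPCAT3-AKO and 17.8 CPM in control over the 8 classes, a ratio of 1.74 (1.64 to 1.86). On its other side Fam104a had a ratio of 1.0 (0.970 to 1.04). For AI506816 the nearest were Srpk2 at 0.913 and Tomm7, a small import protein of mitochondria, at 1.25 (1.23 to 1.28). The 10 genes before Mid1 had a median of -0.01 and ranged from -0.18 to 0.42, and none beyond it lay within 100 rows. Dr1 and Pcgf3 beside Atp5k had ratios of 0.951 and 1.06, and Opa1 and Atp13a3 beside Hes1 0.971 and 0.885.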

How the data were processed

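Each deposited matrix gives whole-number UMI counts for every gene in every barcode. Cell Ranger 6.1.2, Seurat 4.10 and the mm10 build are named, per the submitters' processing notes, and no annotation release is. The members, gene lists and gates were chosen with earlier results of these data known. The named genes were the 7 members, up to 10 genes most like them, up to 4 of each list, up to 2 neighbours on either side and Lpcat3.

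Barcodes with 500 or more genes and at most 10% of UMIs from genes named mt- were kept. The cells with the highest doublet scores (Scrublet in scanpy 1.11.5, 0.8% per 1000 cells) were removed, 1088 in LPCAT3-AKO and 1235 in control. A cell took a class when the share of that class's markers with a UMI reached 80% (ASPC), 50% (macrophage/monocyte), 35% (dendritic cell) or 30% (the other classes used), and when it passed no other gate. The markers were fixed first and the thresholds set after the data were seen. In LPCAT3-AKO 1009 and in control 596 cells passed several gates, and 430 and 475 passed none. Within 1 marker of the threshold lay 162 LPCAT3-AKO and 159 control ASPC-like cells, and 61 and 85 dendritic cell-like cells.

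UMIs were summed per class and library. Levels carry exact Poisson intervals, ratios exact binomial intervals and shares exact Clopper-Pearson intervals. PCR and cells are not independent samples, so all cover counting error only. The log2 ratio is that of CPM + 1, and class-stratified ratios are Mantel-Haenszel ratios over 8 classes. Leiden clusters used 2000 variable genes, 30 components, 15 neighbours and resolution 1.0. Only the size rule and the class-stratified ratio were tested on simulated counts, with changes larger than 1.5-fold. The other steps were not tested in this way.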

Additional observations from a re-analysis of the deposited data

Results flagged for a closer look

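The ratio of Hes1 differed in direction between classes. It was 1.53 in ASPC-like, 1.78 in macrophage/monocyte-like, 2.01 in epithelial-like and 2.54 in mast cell/basophil-like cells, against 0.799 in vascular endothelial-like cells, with counting intervals on opposite sides of 1. The difference between classes was not tested, because each class rests on 1 library per group. The Leiden cluster led by vascular endothelial markers had 1.45, and it also held cells outside that gate.

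Bcl2a1b had a ratio of 0.476 in ASPC-like cells and 1.07 in macrophage/monocyte-like cells. This difference was not tested either. In ASPC-like cells it rests on 43 UMIs in LPCAT3-AKO and 90 UMIs in control, a level below what stray macrophage RNA would give.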

How the results depend on the processing

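No paired analysis was possible because each group has 1 library. Of the class-stratified log2 ratios, those of 6 genes kept their direction under all alternatives and Bcl2a1b did not: it was -0.026 stratified by cluster and -0.26 in the deepest of 3 depth bins, against 0.08, and 0.24 thinned, 0.13 with the stricter gate and 0.011 without macrophage/monocyte-like cells. Thinning gave 0.63 for Atp5k, 0.56 for Rpl38 and 0.70 for Hes1, and the deepest bin 0.74, 0.61 and 0.56, with 1.52 for AI506816 and -1.23 for Bcl2a1d. Stratifying by cluster gave 0.61 for Rpl38, -1.0 for Bcl2a1d and 0.76 for Hes1, and cluster-based classes 0.71 for Hes1. Without ASPC-like cells AI506816 had 0.93, Mid1 -1.35 and Hes1 0.78, and without macrophage/monocyte-like cells AI506816 had 1.47 and Mid1 -0.72. The median over classes was 0.62 for Rpl38, 0.70 for AI506816, -0.74 for Bcl2a1d and 0.88 for Hes1. At a ratio of 2 the classes past the rule were 0 for Atp5k, Rpl38 and Bcl2a1d and 1 for AI506816 and Hes1. With the 8 classes of 50 or more cells, an alternative added after seeing the data like the deepest bin and the macrophage/monocyte omission, they were 8 for Atp5k, 5 for Rpl38 and Hes1 and 1 for Bcl2a1b, as also with no CPM minimum, and with cluster classes 4 for AI506816. Centring each class moved the ribosomal protein median to -0.055 in macrophage/monocyte-like, -0.19 in dendritic cell-like and 0.087 in T cell-like cells. In single classes 35 of the values moved and 245 did not. The cause of these moves was not tested.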

Other observations

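The 13 protein genes of the mitochondrial genome, looked at after the values of mt-Atp8 were seen, did not share 1 ratio. Over the 8 classes mt-Atp8 had 76.0 CPM in LPCAT3-AKO and 52.0 CPM in control, a ratio of 1.44 (1.39 to 1.5). The genes of 2 small complex I subunits were also higher, mt-Nd3 with 498 and 344 CPM in LPCAT3-AKO and control and a ratio of 1.43, and mt-Nd4l with 143 and 105.5 CPM and a ratio of 1.32. The abundant mt-Co1 had 4503 CPM in LPCAT3-AKO and 4436 CPM in control (1.01), and mt-Atp6, which overlaps mt-Atp8 in the mitochondrial genome, 4296 and 4222 CPM (1.0). The range ran from 0.791 for mt-Nd6 to 1.44, and 3 of the 13 had a ratio of 1.2 or more.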
